A study of Schizosaccharomyces pombe with 2 samples.

Results

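The genes described here encode the proteins of the cytosolic ribosome of the fission yeast Schizosaccharomyces pombe. They were taken as the probe sets that name a single S. pombe gene whose platform symbol is rpl (large subunit) or rps (small subunit) followed by digits. The rule gave 112 genes, 67 of the large and 45 of the small subunit, of 2889 S. pombe genes measured. RNA of mid-log cells grown in the rich medium YES at 30 °C was hybridized to 2 Yeast Genome 2.0 arrays from Affymetrix. The first held RNA of cells exposed for 2 h to DETA NONOate at 0.5 mM, which sets nitric oxide free over hours, and the second that of untreated cells. The labels name no strain, give no time for the untreated culture and list no array with a spent, inactive form of the donor.

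Each ribosome joins a small subunit, which reads the messenger RNA, to a large subunit, which makes peptide bonds and passes the new chain out through a tunnel. In fission yeast many ribosomal proteins are encoded by several gene copies with nearly the same product, and in growing yeast these genes are among the most highly transcribed. In yeasts their messenger RNAs, together with those of the factors that assemble ribosomes, are known to decline under many stresses as growth slows.

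The values are the deposited probe set signals, in arbitrary units on a linear scale, and each ratio is the log2 signal of the DETA NONOate array minus that of the untreated array. Since each group is a single array (n = 1), differences have no replicate check and no p-value exists. As a yardstick, 64 probe sets for RNAs added during labelling and hybridization, all above background, had ratios with an SD of 0.24, ranging from −0.76 to 0.42. The 13 of them with signals of 1000 or more on both arrays had an SD of 0.08, ranging from −0.08 to 0.21, so most of the wider spread came from dim controls. Several of these probe sets read the same added RNA, so they are not independent measures. Either spread leaves out differences between cultures. The arrays had been scaled to the same 2% trimmed mean, 500.32 for DETA NONOate and 500.29 for untreated. More or less RNA per cell can therefore not be told apart from a changed share of the RNA. The brightest 2% of probe sets on an array, which a mean of that kind leaves out, held 97 of the 112 ribosomal protein genes on the DETA NONOate array and 100 on the untreated array. As a check of the species, 20 probe sets on the same arrays stand for S. cerevisiae ribosomal protein genes. None of them exceeded a signal of 14.3 on the DETA NONOate array or 13.3 on the untreated array, whereas the lowest S. pombe ribosomal protein signal was 1205 on the DETA NONOate array and 1490 on the untreated array.

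Ribosomal protein genes were nearly level between the arrays. Their signals ran between 1205 and 13985 with a median of 8779 on the DETA NONOate array, and between 1490 and 12762 with a median of 7842 on the untreated array. No gene of the 112 was 2-fold higher or 2-fold lower, against 2.25% of all measured genes 2-fold higher and 2.04% 2-fold lower. The median ratio was 0.16 (1.12-fold), with quartiles of 0.12 and 0.20, while the median over all measured genes was −0.01. A ratio above 0 was found for 103 of the 112 genes (92.0%), against 49.2% of all measured genes. At a smaller size of 1.2-fold, 7 ribosomal protein genes were higher and 4 lower. Of all measured genes, 18.1% were 1.2-fold higher and 22.5% were 1.2-fold lower. The ratios of ribosomal protein genes had an SD of 0.12, against 0.51 over all measured genes. Set against the SD of the bright added controls, 0.08, 94 ribosomal protein genes lay farther above 0 and 5 farther below. Against the SD of all added controls, 0.24, these numbers were 17 and 4. Among the bright controls, the 6 probe sets for the added RNA cre had a median of 0.13 themselves. The count of 94, taken from 0, therefore does not set these genes apart from cre. The other bright controls, all dimmer than cre, ranged from −0.08 to 0.08.

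**Figure D1:**
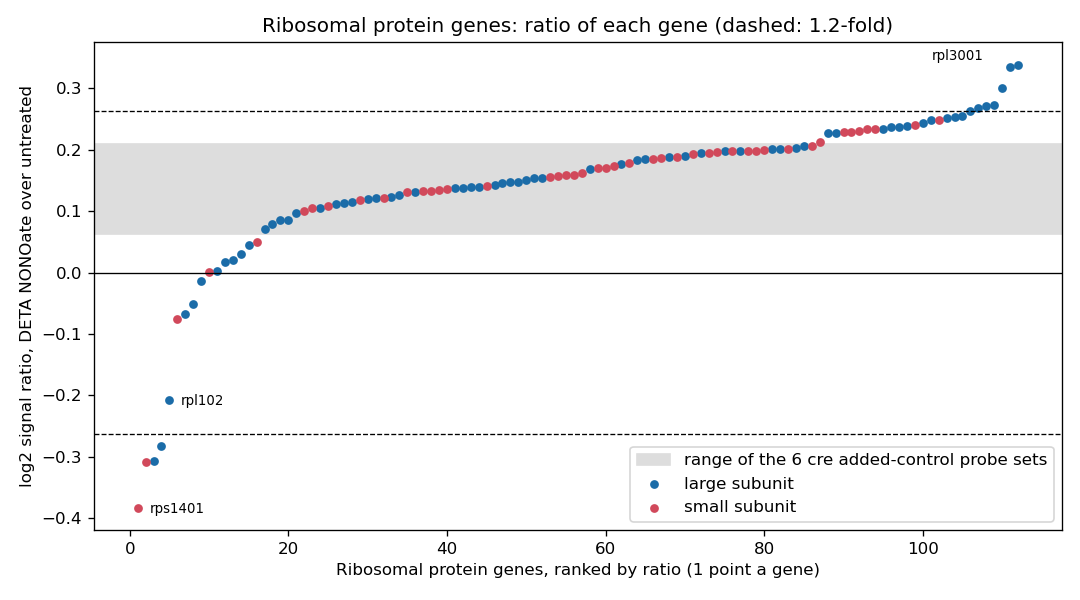
Log2 signal ratio of DETA NONOate over untreated for each of the 112 ribosomal protein genes, ranked along the horizontal axis, with large subunit genes in blue, small subunit genes in red and dashed lines at 1.2-fold in either direction. Most points lie in a band above 0 that overlaps the grey range of 6 probe sets for the added control cre (0.06 to 0.21), and rps1401 at −0.38 is lowest.

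Small positive ratios were also found for bright features outside the rpl and rps genes. RNA of the bacteriophage gene cre is added to every sample as a hybridization control, and its 6 probe sets had signals of 7838 to 10981 on the DETA NONOate array and 7506 to 10091 on the untreated array, within the range of the ribosomal protein genes. Their ratios were 0.06 to 0.21 with a median of 0.13 (1.10-fold). The 105 ribosomal protein genes with a mean signal of 5000 or more had a median ratio of 0.17, and the 122 other genes at that signal also had 0.17. These other genes include further genes of the ribosome and of translation, among them all 11 measured genes for stalk proteins, ubiquitin fusions and Cpc2. The rest of the distributions differed. Quartiles were 0.13 and 0.21 for the ribosomal protein genes, with an SD of 0.07, against −0.03 and 0.27 for the other genes, with an SD of 0.28. Ratios above 0 made up 98.1% of these ribosomal protein genes and 68.0% of the other genes. After a loess trend of ratio on signal was removed, the median of all 112 genes was 0.02, with 70 genes above 0. After quantile normalization, which gives both arrays the same distribution, the median was −0.0045, with 48 genes above 0. Ribosomal protein genes are 105 of the 227 measured genes at a signal of 5000 or more. Both procedures are therefore fitted in part to the family itself there and can draw its median towards 0. The loess span was 0.3 of the measured genes, so its fit there also took in many dimmer genes. With the loess trend fitted to the other genes alone, an alternative chosen after the values had been seen, the median was 0.06, with 88 genes above 0.

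**Figure D2:**
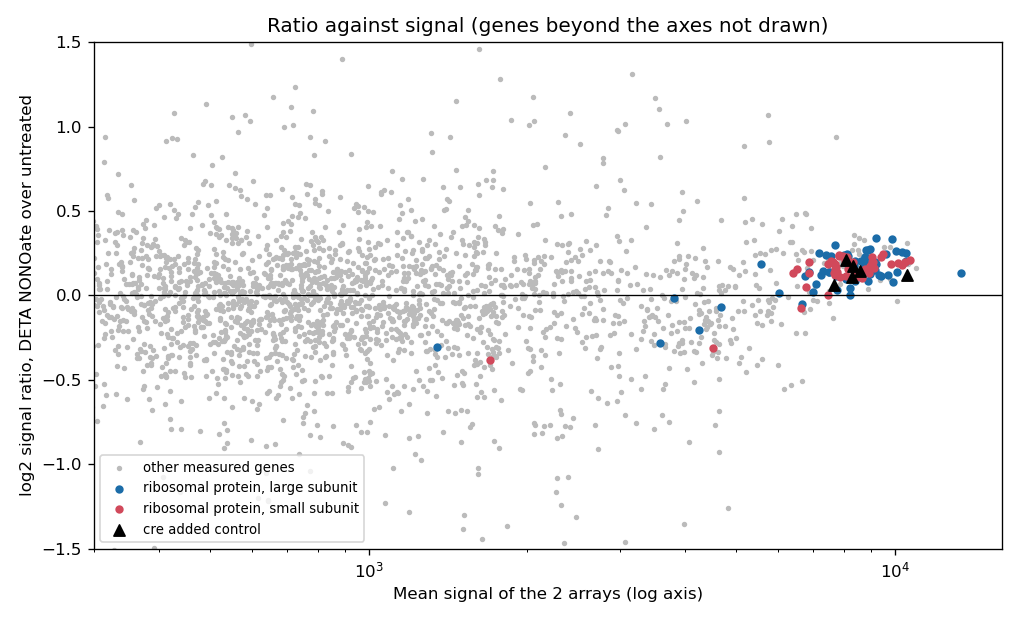
Log2 ratio of DETA NONOate over untreated (vertical axis) against the mean signal of the 2 arrays (horizontal axis, logarithmic) for measured genes in grey, ribosomal protein genes in blue and red, and the added control cre as black triangles. At the bright end most ribosomal protein genes and cre lie in a band above 0. Other genes there spread more widely, on both sides of 0. The 7 ribosomal protein genes with a mean signal under 5000 all lie below 0.

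Ribosomal RNA, the other component of the particle, is read by 7 S. pombe control probe sets. Of these, 6 had ratios above 0, with a range of −0.14 to 0.33 and a median of 0.14. The 3 probe sets for parts of the small subunit rRNA disagreed in direction, at 0.10, 0.28 and −0.14, so no direction was read from them.

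The genes of the subunits were compared by their medians. The 67 large subunit genes had a median of 0.15 and ranged from −0.31 to 0.34, and the 45 small subunit genes had a median of 0.17 and ranged from −0.38 to 0.25. The difference between these medians, large minus small, was −0.02. All 7 genes that were 1.2-fold higher belonged to the large subunit (10.4% of its genes, against 0 of 45 in the small subunit). Of all measured genes, 18.1% were 1.2-fold higher, a larger share than in either subunit. After loess removal and after quantile normalization, 0 ribosomal protein genes were 1.2-fold higher. Genes 1.2-fold lower numbered 2 in each subunit (3.0% of the large and 4.4% of the small, against 22.5% of all measured genes). Genes are not replicates of a condition, so this contrast was not tested.

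The highest ratios belonged to large subunit genes. The gene rpl3001 (SPAC9G1.03C), for a protein at the contact between the subunits, had a signal of 10296 on the DETA NONOate array and 8141 on the untreated array, a ratio of 0.34 (1.27-fold). The gene rpl8 (SPBC29A3.04) had 11040 on the DETA NONOate array and 8756 on the untreated array, a ratio of 0.33. For rpl3702 the signals were 8521 with DETA NONOate and 6915 untreated, a ratio of 0.30, whereas its other, dimmer probe set had 0.24. These 3 genes stood slightly above an otherwise continuous series. The gene rpl2802 followed with 9844 with DETA NONOate and 8149 untreated (0.27). Next came rpl26, for a protein near the tunnel exit, with 9658 with DETA NONOate and 8005 untreated (0.27). The gene rpl13 had 9735 with DETA NONOate and 8086 untreated (0.27). The last of the 1.2-fold higher genes was rpl101, for the mobile L1 stalk that helps spent transfer RNA to leave, with 10968 with DETA NONOate and 9135 untreated (0.26). The gene rpl35 of the tunnel exit had a ratio of 0.25, as did rpl1001, whose protein joins the large subunit late in its assembly, and rpl31. The highest small subunit gene was rps1901, of the head of the subunit, with 10332 with DETA NONOate and 8696 untreated, a ratio of 0.25, and rpl4302 also had 0.25.

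The lowest ratios were found for a handful of genes whose own probe sets were dim for this family. The gene rps1401 (SPAC3H5.05C), for a protein of the platform of the small subunit, had a signal of 1476 on the DETA NONOate array and 1925 on the untreated array, a ratio of −0.38 (1.30-fold lower). The gene rps2202 (SPAC5D6.01), also of the small subunit, had 4042 with DETA NONOate and 5007 untreated, a ratio of −0.31. For rpl1603 (SPBC2G2.05) the signals were 1205 with DETA NONOate and 1490 untreated, likewise −0.31, the lowest signals of the family. These 3 genes and rpl3402 were the ones 1.2-fold lower. The gene rpl3402 (SPCC1322.15) had 3236 with DETA NONOate and 3938 untreated, a ratio of −0.28. The gene rpl102, the other copy for the L1 stalk protein, had 3935 with DETA NONOate and 4542 untreated, a ratio of −0.21. Smaller negative ratios were −0.08 for rps2802, −0.07 for rpl3002, −0.05 for rpl2401 and −0.01 for rpl4101. Just above 0 stood rps1602 and rpl1901, both at 0.00, and rpl802 at 0.02. Of the 9 genes below 0, 8 stayed below 0 after loess removal and 8 after quantile normalization, rpl4101 being the exception both times. The genes rps1401 and rps2202 had ratios of −0.35 and −0.32 after loess removal, and −0.31 and −0.28 after quantile normalization.

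**Figure D3:**
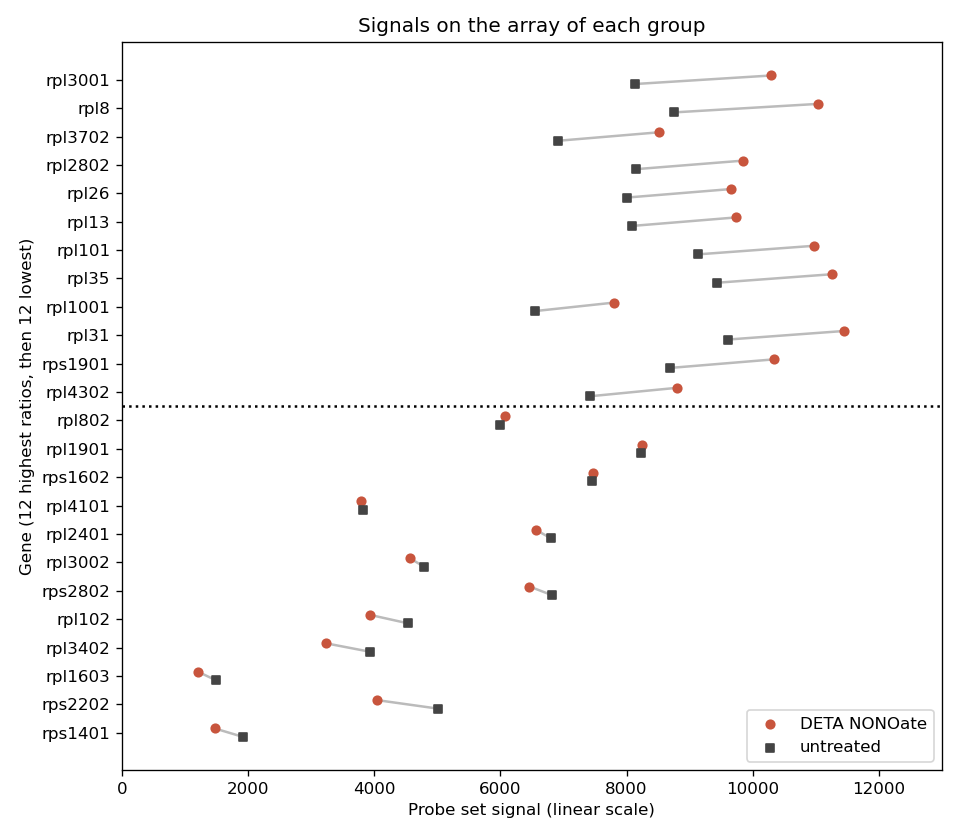
Probe set signal (horizontal axis, linear scale) on the DETA NONOate array (orange circles) and on the untreated array (dark squares) for the 12 ribosomal protein genes with the highest ratios, above the dotted line, and the 12 with the lowest, below it. In the upper set every circle lies right of its square, and the lower set includes the genes with signals under 5000.

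The brightest untreated probe sets had ratios near the family's median. The gene rpl4102, for the smallest ribosomal protein, had 13985 with DETA NONOate and 12762 untreated, a ratio of 0.13. The gene rps3, for a protein at the mRNA entry, had 11458 with DETA NONOate and 9888 untreated, a ratio of 0.21. The genes rps13, rpl2501 and rpl22 each had 0.20, and rps2502 had 0.18.

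Signal and ratio went together within the family. Probe sets differ in how strongly they bind, so a dim one does not show a low transcript level. The 7 genes with a mean signal under 5000 (rpl102, rpl1603, rpl3002, rpl3402, rpl4101, rps1401 and rps2202) all had ratios below 0, with a median of −0.28. Of the 105 genes at 5000 or more, 103 had ratios above 0, the others being rpl2401 and rps2802. Across the 112 genes Pearson's r between log2 mean signal and ratio was 0.77 and Spearman's rho 0.43, and over the 105 brighter genes these were 0.36 and 0.31. These values are descriptions across probe sets of the same arrays, whose signals enter both axes. For other genes with a mean signal from that of the dimmest ribosomal protein gene up to 5000, 650 in number, the median ratio was −0.04 and 45.4% had a ratio above 0. The signal split was chosen after the values had been seen.

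Copies of the same ribosomal protein gene were compared next. Copies were joined by the protein number in their symbols, which gave 42 groups, 39 of 2 copies and 3 of 3, with 87 genes in all. The gene rpl8 was kept apart from rpl801, rpl802 and rpl803, because the synonym rpl2-1 of rpl801 names a different protein. Sequences were not used here, and near-identical copies may share probe sequence, so that a probe set may read both copies and understate how they differ. In 36 of the 42 groups the copies differed by less than 1.2-fold in their ratio, and in 20 by less than 0.1. The median difference was 0.10.

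The closest copies were rps101 and rps102 of the small subunit platform, both with a ratio of 0.16. The head genes rps2501 and rps2502 had 0.17 and 0.18. The large subunit genes rpl4301 and rpl4302 had 0.24 and 0.25. The genes rps601 and rps602 encode the small subunit protein that is phosphorylated downstream of the growth regulator TOR, and both were among the higher of the family, with 0.24 and 0.23. In these groups the copies could not be separated by their ratios.

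In 6 groups the copies differed by 1.2-fold or more, and in all 6 the copy with the lowest ratio was below 0 and had the dimmest probe set. For the platform protein, rps1401 at −0.38 stood against rps1402, which had a signal of 8083 with DETA NONOate and 7026 untreated (0.20), a difference of 0.59 between the copies. Among the 3 rpl16 copies, rpl1603 at −0.31 stood against rpl1601 at 0.18 and rpl1602 at 0.15. The L1 stalk copies rpl101 and rpl102 differed by 0.47. The copies rpl3401 (0.15) and rpl3402 (−0.28) differed by 0.43, and rpl3001 and rpl3002 by 0.41. The smallest of these differences, 0.29, lay between rpl2402 (0.24) and rpl2401, for a protein of a bridge between the subunits. Removing the loess trend left 4 of the 6 differences at 1.2-fold or more, namely rps14 with 0.43, rpl16 with 0.30, rpl1 with 0.29 and rpl30 with 0.27. Quantile normalization left rps14 alone, at 0.36. The lowest ratio also went with the dimmest probe set in 30 of all 42 groups, and in 28 of the 39 groups of 2 copies. The same signals enter both quantities, and a departure from an even split was not tested.

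**Figure D4:**
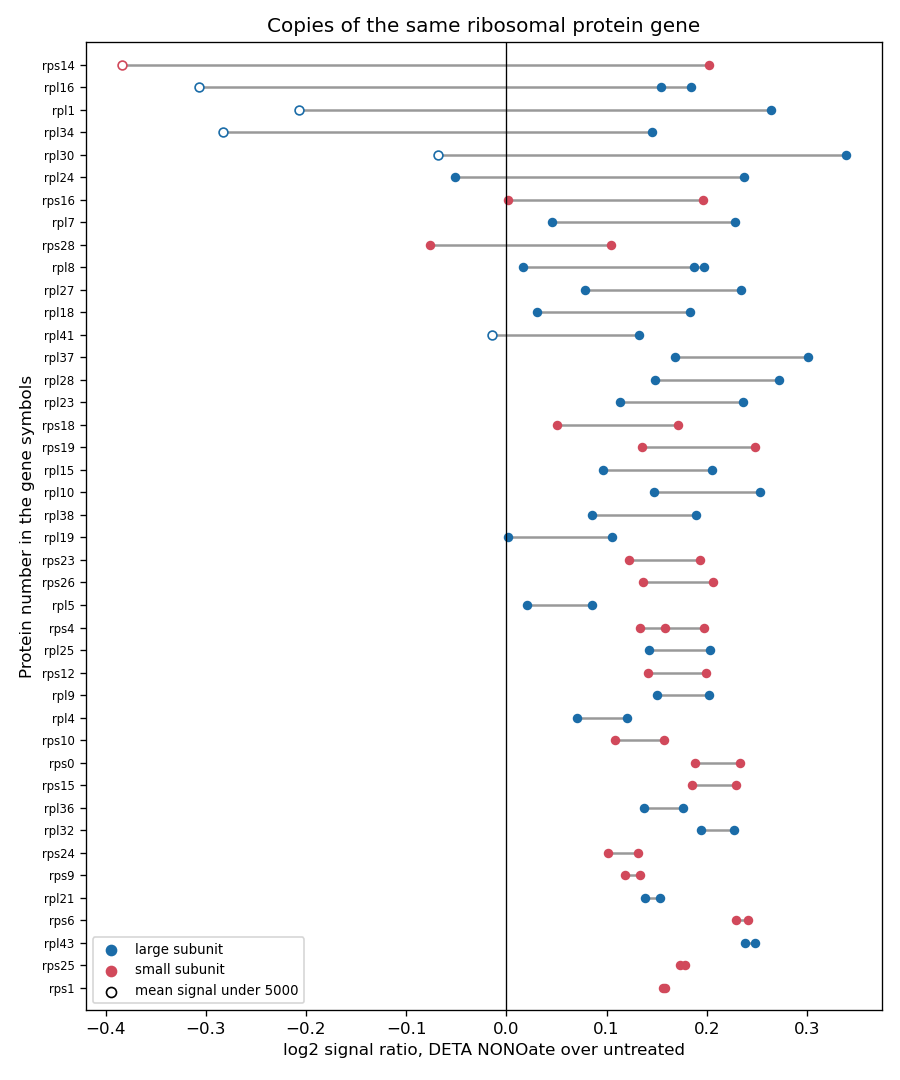
Log2 ratio of DETA NONOate over untreated (horizontal axis) for the copies of each of the 42 ribosomal proteins with several measured genes (vertical axis, sorted by the difference), with open circles for genes with a mean signal under 5000. Most copies sit close together above 0, and the groups with the widest differences hold an open circle below 0, apart from rpl24.

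Another view of copies came from probe sets that name several ribosomal protein genes and therefore belong to no single member. The probe set naming both rps2201 and rps2202 had 8375 with DETA NONOate and 7324 untreated, a ratio of 0.19, whereas the probe set of rps2202 alone had −0.31. The family holds 131 genes in RefSeq. Of these, 112 had a probe set of their own, 7 were named only on shared probe sets, and 12 were not analysed here. The 2 genes with more than 1 own probe set had ratios above 0 on both, with 0.30 and 0.24 for rpl3702 and 0.17 and 0.24 for rps3002. In each, the first value came from a probe set marked as able to share sequence with other genes (suffix _x_at). The second value of rpl3702 falls short of 1.2-fold, and without probe sets so marked 6 genes were 1.2-fold higher.

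Members were then grouped by their place in the ribosome. The genes for proteins that enter the large subunit together with the 5S ribosomal RNA, here rpl501, rpl502 and rpl1102, had ratios of 0.09, 0.02 and 0.11. The genes for the wall of the exit tunnel, rpl401, rpl402, rpl1702 and rpl39, had 0.07, 0.12, 0.12 and 0.13. The 7 genes for the rim of that tunnel, where new chains meet targeting factors, had a median of 0.20, between 0.00 for rpl1901 and 0.27 for rpl26. The 6 genes for bridges to the small subunit split evenly, with 3 above 0, 3 below and a median of 0.06. They are the copy pairs of rpl24, rpl30 and rpl41, and in each pair the copy below 0 had the dimmer probe set. In the small subunit, the 6 genes for mRNA entry and decoding lay between 0.12 and 0.21, the 16 genes of the head between 0.00 and 0.25, and the 6 genes for the platform and mRNA exit between −0.38 and 0.21.

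Position in the genome was not used to choose the genes. Chromosomes I, II and III carried 45, 45 and 22 of the genes, with median ratios of 0.15, 0.17 and 0.19. In 8 cases ribosomal protein genes were immediate neighbours among protein-coding genes, with ratios above 0 for both genes of each pair. These pairs hold 15 genes, and of the family's genes taken singly 92.0% lay above 0. Across the neighbours the median difference was 0.05, and over all pairs that the 112 genes can form it was 0.077. Whether neighbours differ from other pairs was not tested. The neighbours rpl701, rps1402 and rps1601 on chromosome II had 0.23, 0.20 and 0.20, and rps2 and rps20 on chromosome III had 0.20 and 0.19. The widest gap, 0.27, lay between rpl13 and rps1602. The 25 genes with no other measured copy had a median of 0.20, against 0.15 for the 87 with a copy. After loess removal both medians were 0.02. The genes without a measured copy were also brighter, with a median untreated signal of 8579 against 7589. Some of them, such as rps2202, have a copy that is named only on a shared probe set.

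Genes for other parts of the ribosome and for translation factors are given for comparison. They come from chosen lists of symbols, and only the symbols found among the measured genes are counted. Among 11 measured genes for the acidic stalk proteins, the ubiquitin fusions and the small subunit scaffold Cpc2, 9 had ratios above 0, none was 1.2-fold higher or lower, and the median was 0.13. The stalk base gene rpp0 had 11442 with DETA NONOate and 9971 untreated (0.20). The genes rpp103 and ubi3, which encodes ubiquitin fused to a small subunit protein, had 0.21 and 0.19. The 6 measured elongation and release genes had a median of 0.10. Among them the elongation factor gene ef1a-a, now tef101, had 7901 with DETA NONOate and 5658 untreated, a ratio of 0.48. The elongation factor gene tef3 had 0.17. The release factor gene sup45, now erf1, had 2553 with DETA NONOate and 3414 untreated, a ratio of −0.42, and sup35, for its partner, had −0.17. Of 17 genes measured from the initiation list 16 lay below 0 (median −0.16), and 2 were 1.2-fold lower (11.8%). The list was matched by symbol and includes pab1 (−0.08), which is not an initiation factor gene in S. pombe. Over all measured genes 49.2% lay above 0 and 22.5% were 1.2-fold lower. The lowest were tif223 with −0.48, tif211 with −0.35 and tif32, now tif301, with −0.26. Of the 4 measured genes for factors that meet the new chain at the ribosome, the chaperone partner gene zuo1 had −0.33, btf3 had 0.23 and sks2 had 0.10.

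Among 16 genes for regulators of growth and of ribosomal protein gene transcription, 8 had ratios above 0 and 8 below. The gene hri1, for a kinase that inhibits translation initiation, was at least 2-fold higher, with 883 with DETA NONOate and 314 untreated (2.81-fold). The kinase gene psk1, whose product phosphorylates Rps6 under TOR, had 369 with DETA NONOate and 691 untreated, a ratio of −0.90. The gene gad8, for another kinase under TOR, had 0.46. The forkhead gene fhl1 and the zinc finger gene sfp1, whose S. cerevisiae counterparts act on ribosomal protein genes, had 0.24 and −0.30.

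Genes that build ribosomes had lower ratios than most genes of their proteins. All 30 genes measured from a chosen list of 49 symbols for ribosome assembly and RNA polymerases I and III lay below 0 in ratio. Their median was −0.35 (1.27-fold lower), and 22 of them were 1.2-fold lower (73.3%), against 4 of the 112 ribosomal protein genes and a background of 22.5%. The gene sda1, whose S. cerevisiae counterpart is needed for export of the large subunit, was at least 2-fold lower, with 270 with DETA NONOate and 605 untreated. Next were mak16 with −0.94 and rrp16 with −0.88. Mitochondrial ribosomal protein genes, 39 in number, had a median of −0.24 (1.18-fold lower), with 36 below 0 and 19 at least 1.2-fold lower (48.7%, against the same 22.5% of all measured genes). The lowest was mrpl16, with 531 with DETA NONOate and 1258 untreated (2.37-fold lower), followed by mrpl33 with −0.76 and mrpl28 with −0.62. These medians stayed below 0 under the other scalings, at −0.31 for assembly genes and −0.20 for mitochondrial ones after loess removal, and −0.33 and −0.22 after quantile normalization. The assembly genes had a median signal of 869 with DETA NONOate and 1208 untreated, and the mitochondrial ones 636 with DETA NONOate and 753 untreated, far below the cytosolic family.

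**Figure D5:**
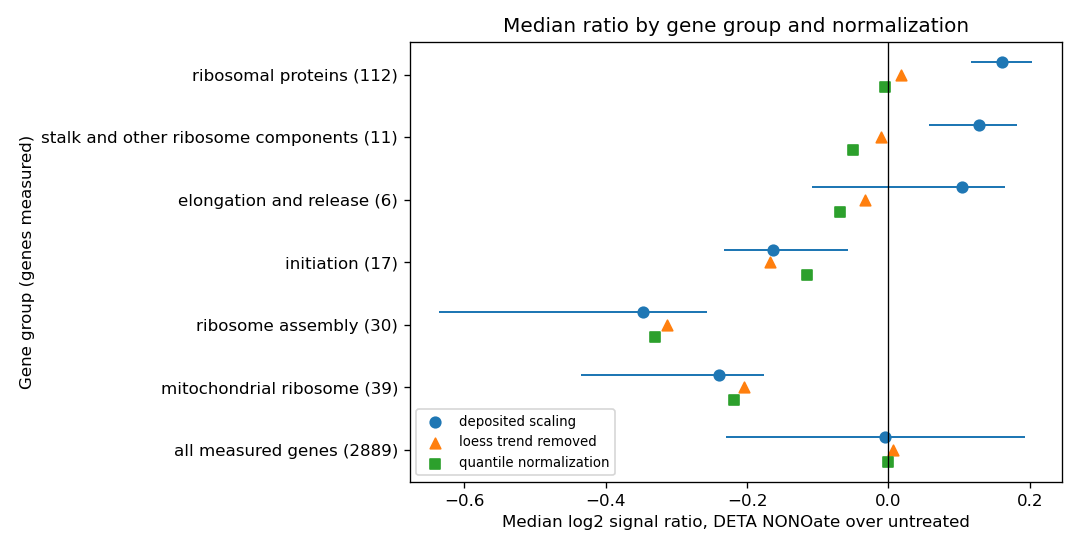
Median log2 ratio of DETA NONOate over untreated (horizontal axis) by gene group (vertical axis, number of genes in brackets) with the deposited scaling (circles, with lines from the lower to the upper quartile), with the loess trend removed (triangles) and after quantile normalization (squares). Ribosomal proteins move from 0.16 to about 0 with the scaling, whereas assembly and mitochondrial ribosome genes stay below −0.2.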

How the data were processed

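Total RNA (250 ng per array, per the labels' protocols) was made into biotinylated cRNA, and the authors deposited linear probe set intensities for 2 arrays. The submitters' processing notes name Affymetrix Expression Console, with its version and summary algorithm not given in the sources used here. Equal trimmed means show that each array was scaled. Names came from the platform annotation, which can be old, matched by gene ID to RefSeq assembly ASM294v3, which also gave chromosomes and neighbours. A gene with several probe sets was read by the brightest. Background was the 95th percentile over 2601 S. cerevisiae probe sets (8.76 with DETA NONOate, 7.99 untreated). Signals below it were raised to it before log2, and all 112 ribosomal protein genes exceeded it on both arrays. With 1 array a group, which limits the precision, counts at 2-fold and 1.2-fold are descriptions and no test was made. The genes named are the 12 highest and 12 lowest ratios, the 6 brightest and 6 dimmest untreated signals, the copies that differ most and least, members with several probe sets, and in other lists those past 2-fold and the 3 largest absolute ratios. Others complete a group and were chosen after their values were seen. The members and lists were chosen with earlier results of these data known. Alternatives were other background rules, scalings and probe set rules. The recovery of 2-fold counts was tested on simulated data with larger planted changes. The simulated data held no trend of ratio on signal, and 1.2-fold counts and copy differences were not checked in them. Python 3.11.15, pandas 2.3.3 and statsmodels 0.14.6 were used.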

Additional observations from a re-analysis of the deposited data

Results flagged for a closer look

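The 7 probe sets that name several ribosomal protein genes entered no comparison, and all 7 had a higher signal on the DETA NONOate array than on the untreated array. Their log2 ratios were 0.28 for rpl301 with rpl302, 0.25 for rpl1001 with rpl1002, 0.25 and 0.13 for the 2 probe sets of rps3001 with rps3002, 0.22 for rpl1201 with rpl1202, 0.19 for rps2201 with rps2202, and 0.15 for rpl1101 with rpl1102. The difference has no replicate check, and its cause was not tested.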

How the results depend on the processing

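No paired analysis was possible because each group has 1 array. Another background rule, median centring, another rule for several probe sets, leaving out probe sets marked as shared, and current RefSeq symbols (which drop rpl35a) moved no count of ribosomal protein genes by over 1.5 times. Quantile normalization gave 0 genes 1.2-fold higher in place of 7, 2 lower in place of 4, 48 above 0 in place of 103, 1 copy group in place of 6 with a 1.2-fold difference, and 22 in place of 8 on both sides of 0. Loess removal gave 0 genes 1.2-fold higher and 23 copy groups on both sides of 0. With the loess trend fitted to the other genes alone, chosen after seeing the data, these were 0 and 17, and 88 genes lay above 0. At 1.5-fold, 0 genes were higher and 0 lower. Without the 7 genes under a signal of 5000, an alternative chosen after seeing the data, 0 genes were 1.2-fold lower. No gene was 2-fold higher or lower under any alternative run. Of 31 named members, 10 changed sign after quantile normalization and 6 after loess removal. The cause was not tested. Alternatives on protein identity and the search of promoters for motifs were not run, since no sequences were used here.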
